A study of Mus musculus with 21 samples.

Results

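Snhg1, Snhg3, Snhg5, Snhg6, Snhg8, Snhg11, Snhg12 and Gas5 are host genes of small nucleolar RNAs (snoRNAs). They were selected by gene symbol, each symbol stood on 1 row, and they made up 8 of the 23827 gene rows in every library. Ribosome-bound RNA (the translatome) and total RNA (the transcriptome) had been sequenced from mouse embryos at E14.5 by translating ribosome affinity purification (TRAP-seq), in which a tagged ribosomal protein is pulled down with the RNA it sits on. The 21 libraries fell into 7 groups of 3. All embryos carried 1 copy of an mCherry-Rpl10a allele in the ROSA26 locus, made in a single targeted stem cell clone, from which the CAGGS promoter drives the tagged protein once Cre has removed a stop cassette. Brain transcriptome, brain translatome, kidney transcriptome and kidney translatome libraries came from Sox2Cre+/-;Gt(ROSA)26Sor-mCherry-Rpl10a+/- embryos, in which all derivatives of the epiblast carry the tag. Brain EC and kidney EC translatome libraries came from Cdh5CreERT2+/-;Gt(ROSA)26Sor-mCherry-Rpl10a+/- embryos whose mothers had received tamoxifen, so that the tag was in endothelial cells (EC). Brain Emx1 translatome libraries came from Emx1Cre+/-;Gt(ROSA)26Sor-mCherry-Rpl10a+/- embryos, in which the dorsal telencephalon carries the tag. Brain means the forebrain with part of the diencephalon, the same tissue of more than 1 embryo could be pooled in a library, and non-endothelial cells of the EC samples and non-dorsal cells of the Emx1 samples still carried untagged ribosomes.

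A snoRNA host gene carries snoRNAs in its introns. After splicing, the snoRNA is trimmed out of the excised intron, joins its partner proteins and stays in the nucleus, where it guides the modification or cleavage of ribosomal RNA. The joined exons are the by-product: they reach the cytoplasm, hold only short reading frames, often begin with a run of pyrimidines of the kind that ties translation to cell growth, and are classic substrates of nonsense-mediated decay, Gas5 (growth arrest specific 5) being the best known.

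The GENCODE model matched to Snhg1 (NR_002896, chr19:8723475-8726443, plus strand, GRCm38) had 10 exons around 8 snoRNA genes, Snord22 among them. Snhg3 (NR_003270, chr4:132348014-132353686, minus strand) carried Snora73a and Snora73b. Of its 437 exon bases, 356 lay within the span of the protein-coding gene Rcc1 on the same strand. Within the span of Gm17300 on the opposite strand lay 347. Whether these bases are exons of those genes was not checked, so the Snhg3 counts are uncertain. Snhg5 (NR_040721, chr9:88521050-88522929, minus strand) held Snord50a and Snord50b in introns, and Snhg6 (NR_024067, chr1:9941959-9944118, minus strand) held Snord87. Snhg12 (NR_029468, chr4:132308623-132311024, plus strand) held Snora16a, Snora44, Snora61 and Snord99 in introns between 5 exons. These models contained introns as introns, whereas 2 others did not. Snhg8 (NR_028574, chr3:123507552-123508404, minus strand) was matched to a single exon that includes Snora24. Gas5 (NR_002840, chr1:161034422-161038539, plus strand) was matched to a retained-intron model of 2556 bases with 4 exons. Reads from unspliced RNA of these 2 genes thus entered their counts. Exons of the Gas5 model also hold snoRNA genes without rows of their own, Snord78 among them, and reads on these could enter its counts too. Snhg11 (NM_175692, chr2:158375638-158386145, plus strand) was the only member with an mRNA accession, with an annotated coding sequence of 261 bases in an RNA of 5864 bases. The other 7 models were between 400 and 2556 bases long. Row lengths worked out from reads and RPKM were close to the matched models for 7 members, counting Snhg8 and Gas5 without their snoRNA bases, and were 480 against 605 bases for Snhg1. Snhg6 has 61 exon bases within the span of Mcmdc2 on the opposite strand. The kit did not keep strand, so reads there could not be told apart by gene, but Mcmdc2 was at most 1.09 RPKM in any library.

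The sequence around the start of transcription is shown because the pyrimidine run at that place is the feature by which such RNAs are grouped. Each line gives 20 bases before and 20 bases from the RefSeq start on (GRCm38.p6, strand of the gene, 5′ to 3′), with the longest run of C and T within 10 bases of the start in capitals. RefSeq promoters were found for 7 members. Snhg6 was not among them.
Snhg1, chr19:8723467-8723506: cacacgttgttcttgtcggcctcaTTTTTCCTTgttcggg
Snhg12, chr4:132308658-132308697: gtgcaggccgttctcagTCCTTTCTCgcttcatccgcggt
Snhg5, chr9:88522878-88522917: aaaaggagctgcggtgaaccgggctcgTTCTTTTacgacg
Snhg8, chr3:123508317-123508356: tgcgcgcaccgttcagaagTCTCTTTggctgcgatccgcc
Gas5, downstream start, chr1:161035146-161035185: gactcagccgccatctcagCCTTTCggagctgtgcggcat
Snhg3, chr4:132353667-132353706: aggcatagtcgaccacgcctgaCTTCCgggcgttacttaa
Snhg11, chr2:158375693-158375732: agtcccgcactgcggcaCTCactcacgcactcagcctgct
Runs reached 9 bases in Snhg1 and Snhg12, 7 in Snhg5 and Snhg8, 6 in Gas5, 5 in Snhg3 and 3 in Snhg11. Among 32851 promoters, read on the strand of the gene, the median run was 4 bases. A run of at least 9 bases occurred in 9.55% of them, of at least 7 in 19.7%, of at least 6 in 29.2%, of at least 5 in 44.9% and of at least 3 in 82.9%. Counting the start base as 1, the longest run began at 5 in Snhg1, 8 in Snhg5 and 3 in Snhg3. It began at -3 in Snhg12 and Snhg11, and at -1 in Snhg8 and at the downstream start of Gas5. None of these runs began at the annotated start base itself. Their first base was T in Snhg1, Snhg5, Snhg8 and Snhg12 and C in Snhg3, Snhg11 and Gas5. A match of letters is a description only. Gas5 has a further RefSeq start upstream (chr1:161034581-161034620), where the longest run was also 3 bases.

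Reading frames in the members were short. In the matched models, the longest frame from an ATG to a stop had 41 codons in Snhg1, 43 in Snhg3 and 66 in Snhg5. It had 53 in Snhg6, 35 in Snhg8, 54 in Snhg12, 58 in Gas5 and 89 in Snhg11. The Snhg8 and Gas5 models hold intron sequence, so their frames need not be those of the spliced RNA. The Snhg11 frame, positions 5546 to 5815, is longer than the annotated coding sequence of 261 bases. In Snhg6 and Snhg12 this longest frame also began at the first ATG of the RNA, with 2 and 4 exon junctions downstream of its stop. A stop codon well upstream of a junction is the textbook trigger of nonsense-mediated decay, which was not measured here. The Snhg6 frame, positions 41 to 202 of the matched model, is printed because Snhg6 was the member that differed in the Emx1 lineage. Its start and stop codons are in capitals.
Snhg6: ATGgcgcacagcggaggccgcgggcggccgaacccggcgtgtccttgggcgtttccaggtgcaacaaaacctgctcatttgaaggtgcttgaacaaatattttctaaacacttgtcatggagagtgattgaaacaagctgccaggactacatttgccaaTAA

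Libraries held 21760652 to 79231692 counted reads, and each member other than Snhg11 had between 152 and 12106 reads in every library. The labelled cell types were checked by the summed RPKM (reads per kilobase, scaled to the reads on mRNA rows) of marker lists. All 10 endothelial markers were higher in both EC groups than in the organ translatome, with sums of 3408 to 3578 in brain EC against 189 to 211 in brain translatome libraries and of 2246 to 2680 in kidney EC against 423 to 452 in kidney translatome libraries. In Emx1 libraries all 6 markers of the Emx1 lineage were higher and all 6 ventral markers lower than in the brain translatome. Neuron and progenitor markers still summed to 397 to 502 RPKM in brain EC libraries, against 2172 to 2196 in the brain translatome. Red blood cell markers summed to 300.1 to 572 in the kidney transcriptome and 80.7 to 155.5 in the kidney translatome, and to 153 to 371 and 83.8 to 176.2 in the same brain groups. Their part in the results below was not tested.

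Every member except Snhg11 was abundant in all 7 groups, and Snhg1, the host of Snord22, was the highest member in each of them. On the per-length RPKM scale, Snhg1 ranged from 70.5 ± 2.44 (SD, n = 3) in the brain transcriptome to 259.5 ± 21.0 in the kidney translatome. Its order from the top was kidney translatome, kidney EC, kidney transcriptome, then Emx1, brain translatome and brain EC, whose libraries overlapped from each group to the next, and the brain transcriptome below all others. Gas5 was highest in the kidney transcriptome, at 93.2 ± 3.01, and lowest in both EC groups, at 22.0 ± 2.53 in brain and 26.7 ± 3.24 in kidney, which overlapped. Snhg5 and Snhg12 were lowest in the same EC groups, Snhg5 at 22.1 ± 2.57 in brain EC and 26.6 ± 3.38 in kidney EC, and Snhg12 at 17.4 ± 1.18 and 21.5 ± 3.78, the latter overlapping the brain transcriptome at 25.8 ± 0.46. Snhg8 was highest in the kidney transcriptome and translatome (41.9 ± 1.36 and 40.7 ± 0.34) and lowest in kidney EC (15.6 ± 1.25) and brain EC (17.7 ± 1.60), which overlapped. Snhg3 had its top level in the kidney transcriptome as well, at 37.6 ± 1.79, which overlapped the kidney translatome at 33.3 ± 4.04, and its lowest in brain EC, at 9.57 ± 1.45. Snhg6 was highest in the Emx1 translatome, at 78.5 ± 13.4, and lowest in the brain transcriptome, at 22.6 ± 0.60. Snhg11 stood apart, at 47.9 ± 4.54 in the brain transcriptome and under 3 RPKM in every library of the other 6 groups.

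**Figure D1:**
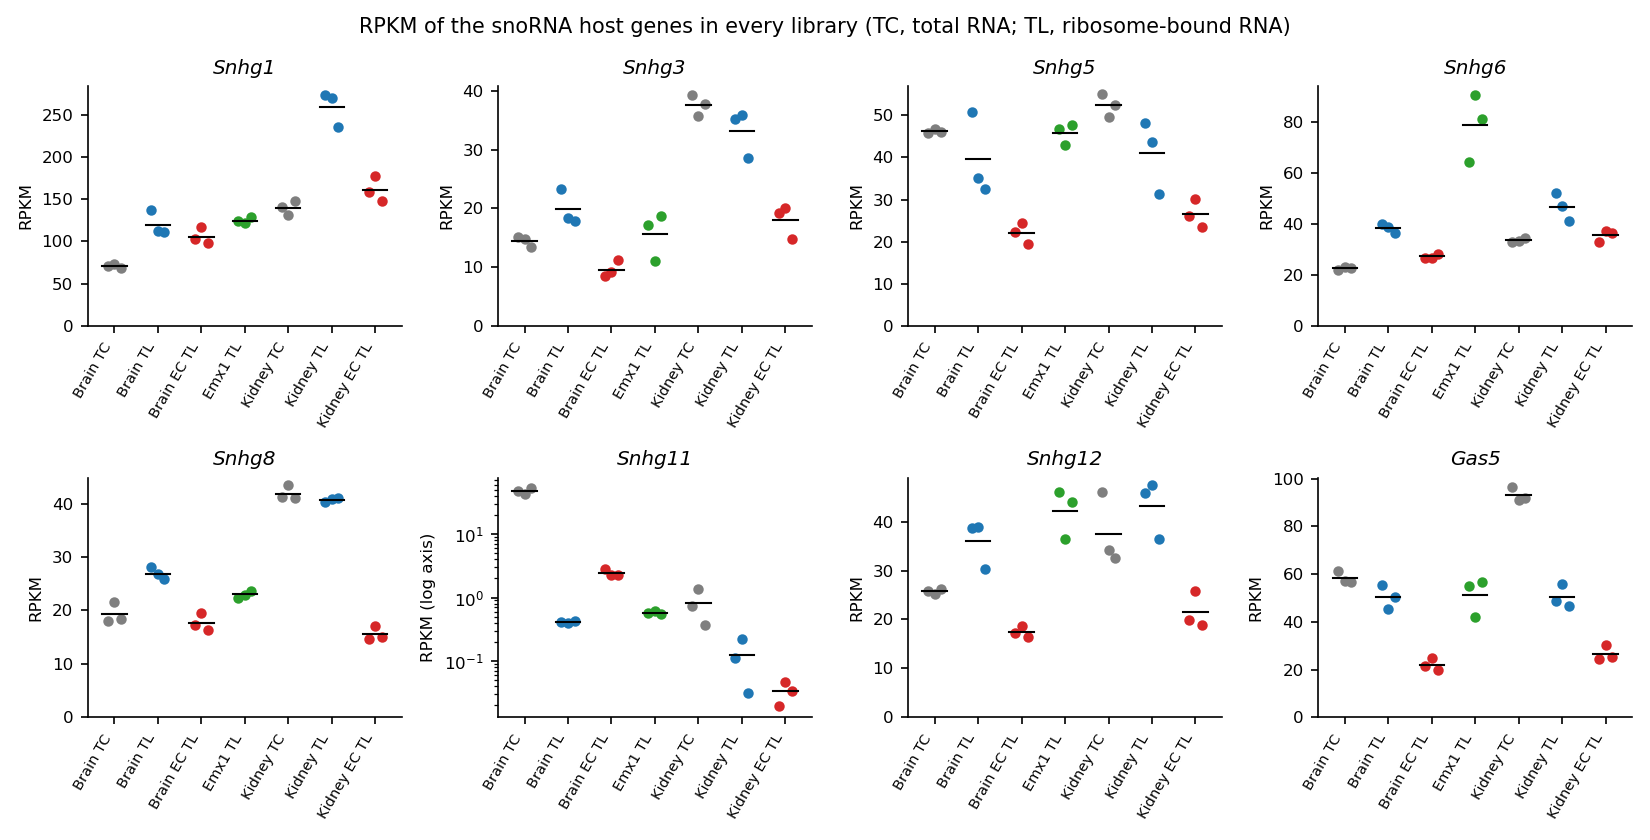
RPKM of the 8 host genes in each of the 21 libraries, 1 panel per gene, with the 7 groups on the horizontal axis (TC, transcriptome; TL, translatome; EC, endothelial cell); points are libraries, bars are means of 3, and the Snhg11 axis is logarithmic. Snhg11 falls from 47.9 RPKM in the brain transcriptome to 0.41 in the brain translatome, whereas Snhg1 is higher in the translatome than in the transcriptome of both organs.

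The first question was whether the hosts are found on ribosomes in the same proportion as in total RNA of the same tissue. For Snhg8 and Gas5 the counts include reads from unspliced RNA. In the forebrain the members split. Snhg1, Snhg6, Snhg8 and Snhg12 were higher in the translatome, Snhg11 was far lower, and Snhg3, Snhg5 and Gas5 did not pass the threshold of an adjusted p under 0.001. That is 4 members higher and 1 lower of 8, where 18.6% of all 19446 rows tested were higher and 18.5% lower (37.1% together). The median log2 fold change was 0.50 over the members and -0.01 over all rows. Libraries of the 2 groups did not overlap for 7 members, against 60.8% of all rows, and Snhg5 was the one that overlapped.

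Snhg11 showed the largest difference. Its RPKM was 47.6, 43.4 and 52.5 in the 3 brain transcriptome libraries and 0.414, 0.396 and 0.430 in the 3 brain translatome libraries. These rested on 11974, 14407 and 15761 reads against 111, 71 and 78. Each transcriptome library was thus 115-, 110- and 122-fold above the translatome library made from the same tissue. The fitted log2 fold change was -6.82 (SE 0.09, adjusted p = 6.3e-15), and 24 rows, 0.12% of those tested, had a lower one. It was called under every alternative, within a single sequencing run too (-6.83).

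Snhg1 was 70.9, 72.7 and 67.9 RPKM in the brain transcriptome and 136.9, 111.9 and 110.7 in the brain translatome, every translatome library above every transcriptome library (log2 fold change 0.80, SE 0.08, adjusted p = 1.1e-06). Snhg6, the host of Snord87, rose by the same amount, from 21.9, 23.0 and 22.8 to 39.7, 38.6 and 36.5 (0.79, SE 0.08, adjusted p = 1.5e-06). These 2 genes and Snhg11 passed the threshold under every alternative. Snhg8 rose from 18.0, 21.6 and 18.5 to 28.1, 26.9 and 25.8 RPKM (0.50, SE 0.09, adjusted p = 1.8e-04), and Snhg12, with 4 snoRNAs, from 25.8, 25.3 and 26.2 to 38.7, 38.9 and 30.3 (0.51, SE 0.09, adjusted p = 2.9e-04). These calls were less firm. Without brain translatome replicate 1 the adjusted p was 0.0024 for Snhg8 and 0.0045 for Snhg12, and within a single sequencing run, which left 1 transcriptome library, it was 0.0029 and 0.020. Snhg8 was also lost without transcriptome replicate 3 (0.0010) and Snhg12 without transcriptome replicate 2 (0.0016) or translatome replicate 2 (0.0018), in 1 fit of all samples (0.0049) and, just above the threshold, under the filter of 10 counts in 3 samples (0.0010).

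The 3 remaining members were not called. Snhg3 was 15.1, 14.9 and 13.5 RPKM in the transcriptome and 23.4, 18.4 and 17.9 in the translatome (log2 fold change 0.49, SE 0.12, adjusted p = 0.0025), and with tissue sample as a block it passed the threshold (0.48, adjusted p = 3.0e-05). Rcc1, whose span holds most of the Snhg3 exon bases, was 26.9 ± 0.94 and 25.8 ± 1.67 RPKM in the same groups. Gas5 was 61.4, 57.1 and 56.6 in the transcriptome and 55.4, 45.3 and 50.4 in the translatome, without overlap (-0.18, SE 0.07, adjusted p = 0.028). Snhg5 was 45.9, 46.9 and 46.0 against 50.9, 35.2 and 32.6, so that 1 translatome library lay above and 2 below all transcriptome libraries (-0.19, SE 0.12, adjusted p = 0.21). Without that library, replicate 1, Snhg5 was lower in the translatome (-0.45, adjusted p = 2.2e-04).

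In the kidney, Snhg1 again rose and Gas5 fell, and the other 6 members did not pass. That is 1 member higher and 1 lower of 8, with 14.9% of 19336 rows higher and 15.8% lower (30.7% together). The members' median log2 fold change was -0.11 against -0.03 over all rows, and 6 members did not overlap between groups, against 56.8% of rows. Snhg1 was 140.5, 130.5 and 147.2 RPKM in the transcriptome and 273.5, 269.6 and 235.4 in the translatome (log2 fold change 0.90, SE 0.06, adjusted p = 1.0e-06). Gas5 was 96.6, 91.0 and 92.0 in the transcriptome and 48.7, 56.0 and 46.5 in the translatome, 54.1% of the level in total RNA (-0.88, SE 0.06, adjusted p = 1.0e-06). Both kept their call under every alternative, and within a single sequencing run their adjusted p was 1.1e-04 and 1.7e-05.

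Members that missed the threshold in the kidney differed in size. Snhg6 was 32.8, 33.4 and 34.4 RPKM in the transcriptome and 51.9, 46.9 and 41.0 in the translatome, without overlap (log2 fold change 0.48, SE 0.10, adjusted p = 0.0018). It passed without translatome replicate 3 (adjusted p = 8.1e-04), in 1 fit of all samples (3.4e-04) and with DESeq2 (5.9e-05). Snhg11, low in this organ, was 0.728, 1.34 and 0.367 RPKM in the transcriptome (217, 318 and 67 reads) and 0.112, 0.224 and 0.031 in the translatome (16, 31 and 4 reads), and each transcriptome library was 6.52-, 5.99- and 11.7-fold above its translatome partner. The direction was as in the forebrain (-2.71, SE 0.56, adjusted p = 0.0020), and without transcriptome replicate 3 it passed (-3.05, adjusted p = 2.5e-04). Snhg8 was level, at 41.2, 43.5 and 41.1 against 40.3, 40.9 and 41.0 (-0.04, 95% interval -0.18 to 0.10). Snhg3 stood at -0.18 (adjusted p = 0.18) and Snhg12 at 0.20 (0.27), both with overlapping libraries, and Snhg5 at -0.35 (0.041). Within a single run Snhg5 was lower (-0.73, adjusted p = 4.3e-04), where 1 translatome library was left.

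With tissue sample as a block, Snhg6 and Snhg12 were also higher in the kidney translatome (adjusted p = 4.7e-12 and 8.1e-04) and Snhg5 and Snhg11 lower (3.9e-12 and 8.9e-50), 3 members up and 3 down. In that fit every row was given the dispersion of the trend, with no spread of its own, so these p-values rest on that shared dispersion.

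**Figure D2:**
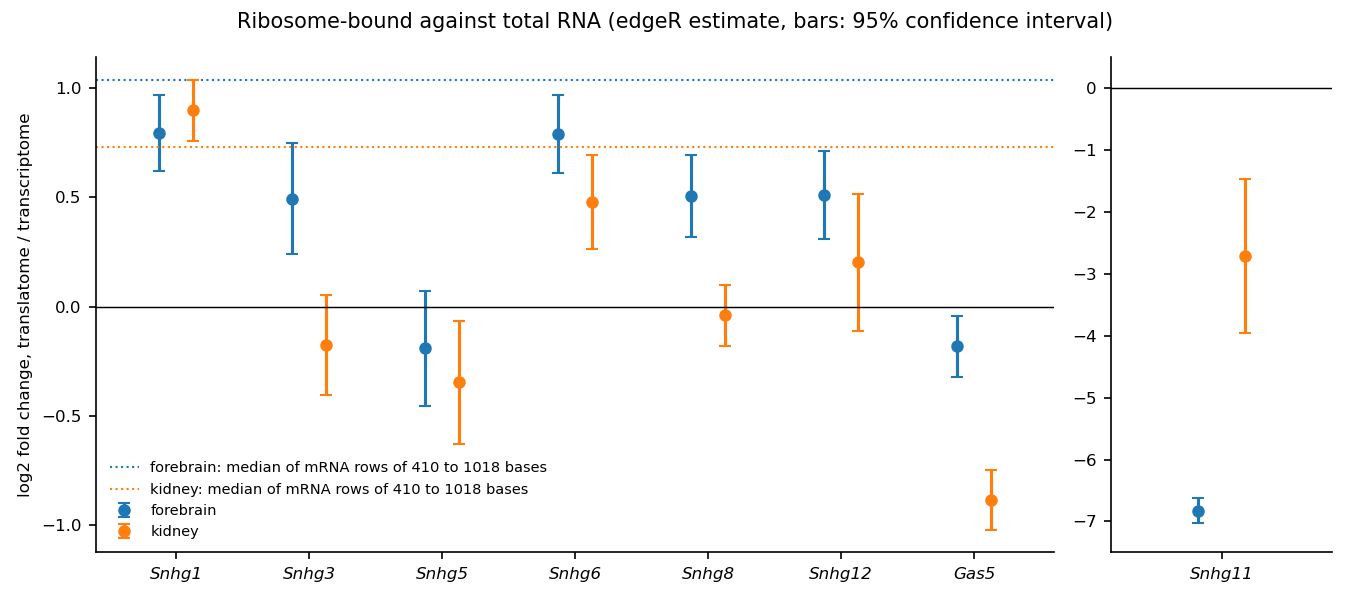
Log2 fold change of the translatome over the transcriptome for each host gene in forebrain and kidney (vertical axis, edgeR estimate; bars, 95% confidence interval; Snhg11 on its own axis), with dotted lines at the median of mRNA rows of 410 to 1018 bases, the length range of the members other than Snhg11 and Gas5. Gas5 sits at -0.18 in forebrain and -0.88 in kidney, Snhg11 at -6.82 and -2.71, and the 6 short members all lie below the 1.04 median of those mRNA rows in forebrain.

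The difference between organs was tested directly as an interaction, which is the forebrain log2 fold change minus that of the kidney. In the main edgeR fit, which does not pair libraries by tissue, Gas5 alone passed, at 0.69 (SE 0.11, adjusted p = 2.5e-04). There 2.35% of 20108 rows were higher and 4.12% lower (6.47% together). Gas5 passed under every alternative. In total RNA Gas5 was higher in kidney than in forebrain, 93.2 against 58.4 RPKM. On ribosomes the RPKM of the 2 organs was level, at 50.4 ± 4.96 and 50.4 ± 5.04. RPKM carries no factor for composition, and the 2 translatomes were not tested against each other. Snhg3 (0.65, adjusted p = 0.0089), Snhg8 (0.53, adjusted p = 0.0030) and Snhg11 (-4.11, adjusted p = 0.0021) missed the threshold in the main fit. With tissue sample as a block these 3 passed (adjusted p = 5.3e-05, 3.4e-05 and 1.1e-13). With DESeq2 they passed too (adjusted p = 9.5e-04, 2.1e-05 and 6.5e-06). For Snhg1 the difference was -0.12, with a 95% interval of -0.36 to 0.12. Snhg6 (0.30), Snhg12 (0.29) and Snhg5 (0.14) were not called either.

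Short RNAs as a class sat high in the translatome. Among 730 mRNA rows over 5 RPKM whose length lay within that of the 6 members other than Snhg11 and Gas5, 410 to 1018 bases, the median log2 fold change was 1.04 in forebrain, with 86.7% higher, and 0.73 in kidney, with 69.3% higher. Against this, Snhg1 and Snhg6 lay below the median of short mRNAs in forebrain, Snhg1 above it in kidney at 0.90, and Snhg3, Snhg5, Snhg8 and Snhg12 below it in both organs. Of those short mRNAs 11 in forebrain and 12 in kidney were lower in the translatome. For the 730 rows the organ difference, forebrain minus kidney, had a median of 0.31, with 7.9% higher and 0% lower. Beside it stood 0.65 for Snhg3, 0.53 for Snhg8, 0.30 for Snhg6, 0.29 for Snhg12, 0.14 for Snhg5 and -0.12 for Snhg1. The 157 noncoding rows over 5 RPKM in forebrain had a median of 0.26, with 33.8% higher and 24.8% lower, and the 159 in kidney a median of 0.24.

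There were 7 other noncoding snoRNA hosts in the files. In forebrain 1 was higher and 2 were lower, and in kidney 1 was higher and 3 were lower. Over all rows 37.1% were called in forebrain and 30.7% in kidney. Host row 2410006H16Rik rose from 45.3 ± 0.82 to 101.7 ± 12.5 RPKM in forebrain (log2 fold change 1.20, SE 0.08, adjusted p = 2.8e-08) and from 67.1 to 126.7 in kidney (0.92). Dancr fell from 9.91 ± 0.55 to 1.99 ± 0.04 (-2.28, adjusted p = 1.5e-09) and in kidney from 15.9 to 3.41 (-2.22). Snhg7 fell from 11.9 to 3.08 (-1.91) and from 22.2 to 5.79 (-1.93). Of 38 protein-coding genes that carry snoRNAs, 10 were higher and 8 lower in the forebrain translatome and 3 higher and 13 lower in the kidney, with medians of 0.03 and -0.29. Over all rows the shares were 18.6% higher and 18.5% lower in forebrain and 14.9% and 15.8% in kidney, so the forebrain counts lay near the background. An example was the splicing factor gene Prpf39, at 23.5 RPKM in the transcriptome and 5.68 in the translatome of the forebrain (-2.02).

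Long noncoding RNAs that are known to stay in the nucleus are given beside Snhg11. Of 9 such RNAs, 7 were lower in the forebrain translatome, with a median of -5.05, and 6 were lower in kidney, with a median of -3.10. Over all rows 18.5% were lower in forebrain and 15.8% in kidney. Meg3, an imprinted noncoding RNA, fell from 267.0 ± 10.1 to 2.69 ± 0.23 RPKM in forebrain (-6.47, adjusted p = 4.4e-15). Miat, known from neurons, fell from 241.6 ± 18.8 to 4.20 ± 0.32 (-5.82), and Malat1, a component of nuclear speckles, from 61.4 ± 7.36 to 1.82 ± 0.29 (-5.05). The -6.82 of Snhg11 was lower than each of these, and no test of that difference was made. The kidney values were -3.78 for Malat1 and -3.57 for Meg3, beside -2.71 for Snhg11. Xist and Airn were the 2 list members not called in forebrain.

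Reads on the snoRNA bases of these genes were also counted. Rows of their own were held by 7 snoRNAs in the introns of Snhg1, Snhg6, Snhg12 and Gas5. Snora24 in Snhg8 and Mir5117 in Gas5, which GENCODE lists as a snoRNA, also have rows, but all 130 and 84 of their bases lie in exons of the matched host models. The row lengths of both hosts match those models without the shared bases, so such bases appear to have been left out of the counting, and both rows were listed at 0 in all 21 libraries. Sequences of 5 of the 7 intronic snoRNAs are shown because their rows are set beside those of the hosts. They are GENCODE transcripts on GRCm38, 5′ to 3′, with the C box letters TGATGA near the start and the D box letters CTGA near the end in capitals for box C/D snoRNAs, which guide methylation, and the ACA near the end in capitals for the box H/ACA snoRNA Snora61, which guides pseudouridylation. For Snord22 no TGATGA was found near its start.
Snord22, in Snhg1, chr19:8725866-8725991: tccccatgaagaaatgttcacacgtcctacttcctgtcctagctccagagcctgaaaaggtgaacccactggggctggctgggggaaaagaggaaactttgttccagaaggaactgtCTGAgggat
Snord87, in Snhg6, chr1:9942463-9942549, minus strand: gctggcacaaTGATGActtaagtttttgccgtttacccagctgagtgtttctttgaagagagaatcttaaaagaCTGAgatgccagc
Snord47, in Gas5, chr1:161038082-161038158: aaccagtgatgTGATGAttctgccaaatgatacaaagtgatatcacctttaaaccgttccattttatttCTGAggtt
Snord99, in Snhg12, chr4:132310691-132310764: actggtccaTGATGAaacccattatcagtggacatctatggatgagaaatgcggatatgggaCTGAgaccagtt
Snora61, in Snhg12, chr4:132310240-132310369: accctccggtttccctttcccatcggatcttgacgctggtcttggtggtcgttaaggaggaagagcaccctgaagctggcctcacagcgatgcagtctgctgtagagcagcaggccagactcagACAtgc

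Over the 7 rows, reads summed to 265 to 342 per brain transcriptome library and to 2 in each brain translatome library, and to 410 to 691 per kidney transcriptome library and 4 to 16 per kidney translatome library. All 7 were lower in the translatome of both organs. Snord22 had 111, 170 and 154 reads in the brain transcriptome and 0 in each brain translatome library, at least 103-fold lower when 3 reads over the group are taken as the floor. In the kidney it had 365, 222 and 191 reads in the transcriptome and 2, 2 and 6 in the translatome, 44.1-fold lower relative to all counted reads. Its host Snhg1 was higher in the translatome of both organs. Snord87 had 60 reads over the 3 brain transcriptome libraries and 0 in the translatome, at least 14.2-fold lower, and 102 and 9 in kidney, 6.43-fold lower, while its host Snhg6 was higher in forebrain. Snora61 in Snhg12 had 90 reads against 1 in brain and 167 against 5 in kidney. Snord47 in Gas5 had 142 against 1 and 219 against 3. A read on these bases can come from the snoRNA or from unspliced host RNA, and the 2 cannot be told apart here. Libraries were poly(A)-selected, and how well free snoRNAs were captured was not tested. The values are therefore differences in reads on these bases and not amounts of snoRNA. Bounds and ratios cover counting error only.

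**Figure D3:**
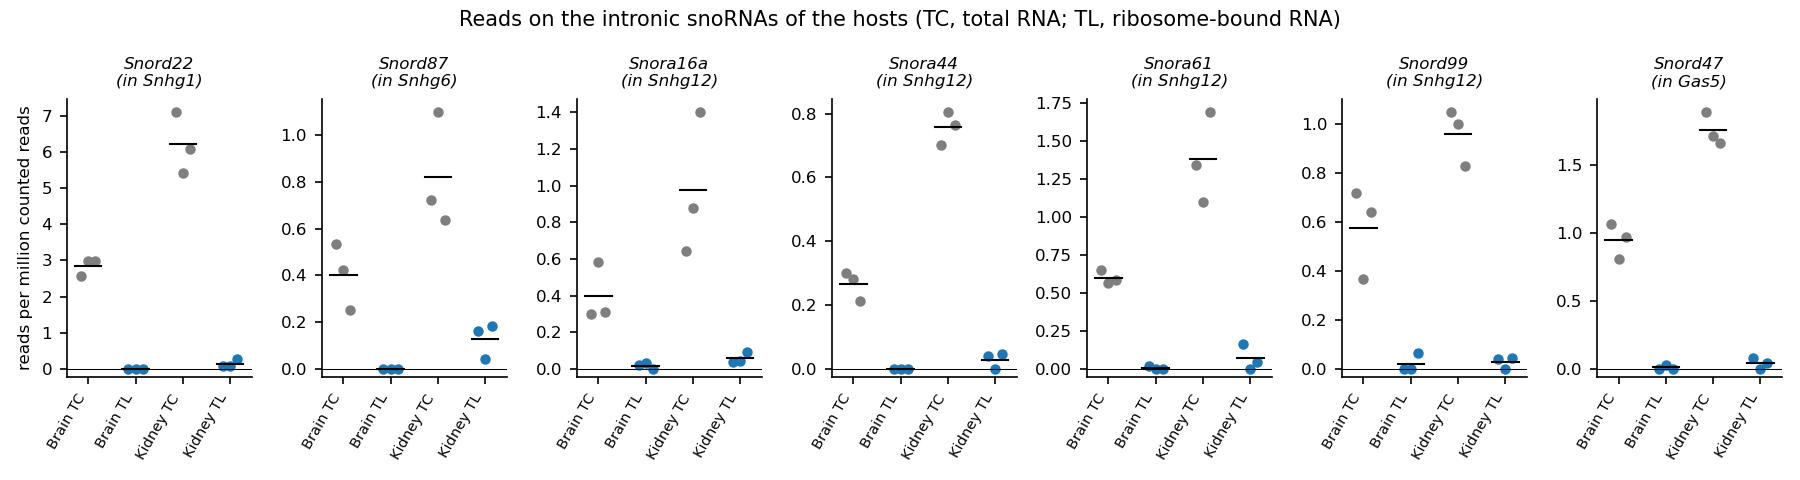
Reads scaled to the counted reads of each library (vertical axis, RPM) on the 7 intronic snoRNAs with reads, in the transcriptome (TC) and translatome (TL) libraries of brain and kidney; points are libraries and bars are means of 3. Every snoRNA row is near 0 in the translatome, Snord22 with 0 reads in all 3 brain translatome libraries.

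Brain EC translatome libraries were compared with the brain translatome to see how the hosts of endothelial cells differ from those of the whole forebrain. Each cell type was sequenced in a run of its own, so run and cell type cannot be told apart in the comparisons that follow. In bulk samples of this kind, fewer cells of a type and less RNA per cell also cannot be told apart. Snhg3, Snhg12 and Gas5 were lower in brain EC and Snhg11 was higher, 1 member up and 3 down of 8, where 24.8% of 19103 rows were higher and 21.4% lower (46.2% together). Without overlap between groups stood 7 members and 70.1% of rows. The members' median log2 fold change was -0.44. Of 156 noncoding rows over 5 RPKM 13.5% were higher and 46.2% lower, with a median of -0.48. Of the 730 short mRNA rows 18.2% were higher and 39.2% lower, with a median of -0.25. The members thus lay near the other noncoding rows. Gas5 was 21.3, 24.8 and 19.9 RPKM in brain EC against 55.4, 45.3 and 50.4 in the brain translatome (log2 fold change -0.91, SE 0.09, adjusted p = 1.4e-06). Snhg12 was 17.1, 18.7 and 16.4 against 38.7, 38.9 and 30.3 (-0.76, SE 0.11, adjusted p = 3.5e-05), and Snhg3 8.41, 9.11 and 11.2 against 23.4, 18.4 and 17.9 (-0.77, SE 0.15, adjusted p = 4.2e-04). Without brain translatome replicate 1 only Gas5 stayed lower, with adjusted p of 0.0012 for Snhg12 and 0.0059 for Snhg3, and Snhg3 was also lost without brain EC replicate 1.

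Snhg11 was the member that was higher in brain EC. It had 2.85, 2.22 and 2.24 RPKM (1035, 695 and 756 reads) against 0.414, 0.396 and 0.430 in the brain translatome, 5.89-fold by the means (log2 fold change 2.85, SE 0.13, adjusted p = 5.7e-10), called under every alternative. The brain EC level was 5.10% of that in the brain transcriptome. In the same comparison 2 of 9 nuclear long noncoding RNAs were higher, Meg3 (1.24, adjusted p = 1.1e-06) and Airn (2.57). That is near the 24.8% of all rows that were higher. Neuron markers were lower in 7 of 8 cases, with a median of -1.74, where 21.4% of all rows were lower. Intronic snoRNAs summed to 3 to 9 reads per brain EC library. The part of these in the Snhg11 value was not tested.

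Snhg1 was not called between brain EC and brain translatome (0.11, 95% interval -0.10 to 0.31), and neither were Snhg6 (-0.20, adjusted p = 0.061), Snhg8 (-0.32, adjusted p = 0.0092) and Snhg5 (-0.55, adjusted p = 0.0042). Mean RPKM of Snhg1 was lower in brain EC, at 105.6 against 119.8, since RPKM is scaled by reads on mRNA rows without a factor for composition. EC values depend on how libraries are scaled: with library totals instead of composition factors the median expressed row moved by -0.30, Snhg1 stood at -0.19, and 6 members were lower, with 3397 rows higher and 6002 lower against 4740 and 4084. Set against brain total RNA, Snhg1 (0.92, adjusted p = 3.0e-07) and Snhg6 (0.61, adjusted p = 4.8e-05) were higher in brain EC, and Snhg5 (-0.73), Gas5 (-1.07) and Snhg11 (-3.96) were lower, 2 members up and 3 down, with 26.8% of 19522 rows higher and 24.3% lower (51.1% together). Here 7 members did not overlap, against 73.7% of rows. With library totals only Snhg1 was still higher, Snhg6 standing at 0.27 (adjusted p = 0.019), and the split of all rows was 3763 higher and 6862 lower against 5232 and 4750.

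Kidney EC libraries had lower Snhg8 and Gas5 than the kidney translatome. That is 2 of 8 lower, with 16.7% of 18940 rows higher and 15.0% lower (31.7% together). Between the groups 7 members did not overlap, against 64.9% of rows. The members' median log2 fold change was -0.55. Of 159 noncoding rows over 5 RPKM 8.2% were higher and 28.9% lower, with a median of -0.51. Of the 730 short mRNA rows 12.1% were higher and 20.4% lower, with a median of -0.09. Snhg8, the host of Snora24, was 14.7, 17.0 and 15.0 RPKM in kidney EC against 40.3, 40.9 and 41.0 in the kidney translatome (log2 fold change -1.03, SE 0.09, adjusted p = 2.3e-06), called under every alternative. Gas5 was 24.4, 30.4 and 25.2 against 48.7, 56.0 and 46.5 (-0.57, SE 0.09, adjusted p = 2.5e-04), and the adjusted p lay between 0.0011 and 0.0013 without kidney translatome replicate 2 or 3 or kidney EC replicate 1. Snhg12 (-0.66, adjusted p = 0.0014), Snhg1 (-0.33, adjusted p = 0.0034) and Snhg3 (-0.53, adjusted p = 0.0062) were close to the threshold. With library totals they passed as well, 5 members lower in all, the median expressed row moving by -0.37 and the rows splitting 1564 higher to 5655 lower against 3163 and 2837. Snhg11 had 5, 9 and 8 reads in kidney EC, and its log2 fold change of -1.56 was not called (adjusted p = 0.055).

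Set against kidney total RNA, 7 members passed, 2 up and 5 down, with 22.7% of 19335 rows higher and 18.4% lower (41.1% together), and 7 did not overlap, against 71.8% of rows. Gas5 was lowest relative to total RNA (-1.38, adjusted p = 1.9e-07) after Snhg11 (-4.23), followed by Snhg8 (adjusted p = 2.8e-06), Snhg3 (-0.64) and Snhg5 (-0.56). Snhg1 (0.63, adjusted p = 2.5e-05) and Snhg6 (0.51, adjusted p = 3.8e-04) were higher. For Snhg6 the RPKM of the groups overlapped, at 35.5 ± 2.33 and 33.5 ± 0.82. Leaving out any 1 of the 3 transcriptome libraries, or kidney EC replicate 2 or 3, ended the Snhg6 call (adjusted p up to 0.0020). Snhg3 was lost without any 1 transcriptome library or kidney EC replicate 1 (up to 0.0032), and Snhg5 without transcriptome replicate 1 or 3 or kidney EC replicate 1 (up to 0.0024). With library totals these 2 rises were not called (0.20 and 0.07), the median expressed row moving by -0.44, and the rows split 2246 higher to 6864 lower against 4388 and 3550.

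In the Emx1 lineage, which makes the excitatory neurons and progenitors of the cortex, 1 member differed from the brain translatome. Snhg6 was 64.1, 90.6 and 81.0 RPKM in the Emx1 translatome against 39.7, 38.6 and 36.5 in the brain translatome, 2.05-fold by the means and without overlap (log2 fold change 1.08, SE 0.10, adjusted p = 6.6e-07), and it was called under every alternative. Of 19006 rows 9.2% were higher and 12.8% lower (22.1% together), and 3 members and 51.4% of rows did not overlap. Mcmdc2, whose span on the other strand holds some Snhg6 exon bases, was 0.34 ± 0.10 RPKM in the Emx1 libraries. The other members stayed within 0.54 of 0 on the log2 scale: Snhg11 stood at 0.54 (adjusted p = 0.0032), Snhg12 at 0.29, Snhg5 at 0.26, Snhg1 at 0.11, Gas5 at 0.08, Snhg8 at -0.17 and Snhg3 at -0.28. Without brain translatome replicate 1 Snhg5 was higher (0.49, adjusted p = 1.6e-04). With library totals the rows split 1183 higher to 2778 lower against 1749 and 2442, and the members' calls were the same.

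Compared with brain total RNA, Snhg6 was higher by 1.95 in the Emx1 translatome (adjusted p = 2.0e-10), Snhg1 by 0.98, Snhg12 by 0.88 and Snhg8 by 0.41, and the log2 fold change of Snhg11 was -6.22, with 25.4% of 19471 rows higher and 23.8% lower (49.3% together). Groups did not overlap for 6 members and 69.1% of rows. Snhg8 lost its call without brain transcriptome replicate 1 or 3 or any 1 Emx1 library (adjusted p = 0.0011 to 0.0024), in 1 fit of all samples (0.0017) and with library totals (0.26, adjusted p = 0.013), 7 of 12 alternatives. Snhg11 in the Emx1 translatome was 1.21% of its level in brain total RNA. With library totals the median expressed row moved by -0.15 and all rows split 3802 higher to 5801 lower against 4952 and 4641.

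**Figure D4:**
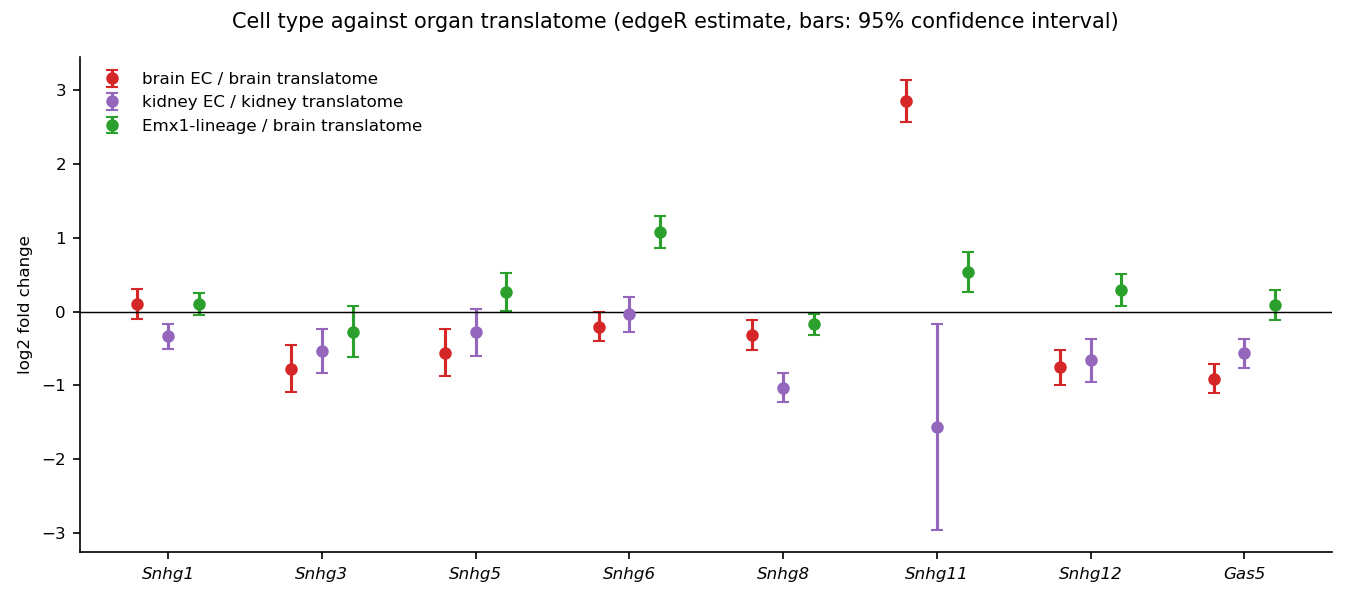
Log2 fold change (vertical axis, edgeR estimate; bars, 95% confidence interval) of each host gene in brain EC and Emx1-lineage libraries over the brain translatome and in kidney EC libraries over the kidney translatome. Snhg11 at 2.85 in brain EC and Snhg6 at 1.08 in the Emx1 lineage are the rises that passed the threshold.

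Between organs, brain EC and kidney EC differed in 3 hosts. Snhg1 (-0.56, adjusted p = 1.8e-04) and Snhg3 (-0.87, adjusted p = 6.4e-04) were lower in brain EC, and Snhg11 was higher (6.28, adjusted p = 3.2e-09), with 20.1% of 19238 rows higher and 16.9% lower (37.0% together), and 5 members did not overlap, against 65.6% of rows. Leaving out brain EC replicate 1 removed both lower calls (adjusted p = 0.0012 and 0.0034), leaving out brain EC replicate 2 or kidney EC replicate 1 or 2 removed that of Snhg3 (0.0024 to 0.0028), and Snhg11 was called under every alternative. With the replicate number as a block Snhg3 was not called (adjusted p = 0.0021). In total RNA 5 members were lower in forebrain than in kidney and 1 higher, with 26.3% of 19841 rows lower and 27.2% higher (53.5% together), and no member overlapped, against 74.4% of rows that did not. The log2 fold change was -1.19 for Snhg3, -0.92 for Snhg8, -0.79 for Snhg1, -0.49 for Gas5 and -0.38 for Snhg6, the last not called once any 1 of the 6 libraries was left out (adjusted p = 0.0022 to 0.0040), in 1 fit of all samples (0.0025) or with the replicate number as a block (0.0016), and Snhg11 was 59.0-fold higher by the means (6.03, adjusted p = 3.6e-09). Snhg5 stood at 0.01 (95% interval -0.12 to 0.14) with RPKM that did not overlap, and with library totals, which move the median expressed row by -0.18, at -0.17.

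Across the 21 libraries the members followed one another loosely. Among the 7 without Snhg11, the Pearson correlation of log2 RPKM + 1 ran from 0.02 for Snhg1 with Gas5 to 0.92 for Snhg5 with Gas5, with a median of 0.62. Libraries share tissue samples and sequencing runs, so these values are descriptive. Snhg11 went against Snhg1 (-0.79). Of 10226 rows with a mean of at least 5 RPKM, those most like Snhg11 were A930011O12Rik (0.96), Miat (0.95) and Lass4 (0.95), and those most like Gas5 were 2610019E17Rik (0.96), Nae1 (0.95) and Zfp574 (0.95). The row most like Snhg1 was 2810004N23Rik (0.98), that most like Snhg3 was Stard10 (0.95), that most like Snhg5 was Slc7a6os (0.93), that most like Snhg6 was Abhd14a (0.93), that most like Snhg8 was Ngfr (0.96) and that most like Snhg12 was Ssbp1 (0.94).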

How the data were processed

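The authors aligned reads to GRCm38 (mm10, per the labels' processing notes) with RUM and made, for each library, a table of deposited read counts per gene row and of deposited RPKM values with the rpkmforgenes script, using RefSeq gene models and scaling RPKM by the reads on mRNA rows. Libraries were poly(A)-selected and unstranded. Members and gene lists were chosen with earlier results of these data known. Counts were tested with the edgeR 4.0.16 quasi-likelihood test (R 4.3.3, TMM factors), 1 fit per pair of groups, on rows with at least 1 count. P-values were adjusted by Benjamini-Hochberg over all rows, and a row was called at an adjusted p under 0.001. Levels are deposited RPKM, mean ± SD of 3 libraries. Intervals are 95%. Replicates are separate libraries of a group, and where separate embryos are not stated p-values measure only the spread between libraries. A symbol on several rows was taken from the row with most reads.

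Same-numbered transcriptome and translatome libraries came from the same tissue, and their deviations from the group means correlated (0.43 to 0.51 over rows in brain and 0.53 to 0.63 in kidney, 6 of 6 libraries best with their own number). Brain EC and kidney EC libraries of 1 number correlated at 0.20 to 0.32. Alternatives were DESeq2 1.42.0, RLE or library-total scaling, a filter of 10 counts in 3 samples, a replicate block, 1 fit of all samples, 1 sequencing run and leaving out each library. From each list the genes named had the largest changes among those called with at least 5 RPKM, leaving out ribosomal protein rows that share reads with near-identical copies. Simulated 2-fold changes in 200 rows with a mean of at least 50 counts were found in 198 cases for the forebrain comparison (19101 rows) and 194 for brain EC against brain translatome (18782 rows), with 0 and 1 false calls. Every row was simulated with the same dispersion, without pairing or run effects, so these counts are not error rates of the real comparisons. Tables and figures were made with Python 3.11.15, numpy 2.4.6, pandas 2.3.3 and matplotlib 3.10.9.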

Additional observations from a re-analysis of the deposited data

Results flagged for a closer look

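The translatome to transcriptome difference of Gas5 was not the same in the 2 organs: the interaction term, forebrain minus kidney, was 0.69 on the log2 scale (SE 0.11, edgeR adjusted p = 2.5e-04). In forebrain all 3 translatome libraries lay below the transcriptome libraries by a small margin (log2 fold change -0.18), and in kidney by a large one (-0.88). All 10067 mRNA rows over 5 RPKM had a median interaction of 0.02. The counted Gas5 model holds intron sequence. Its exons also hold the snoRNA genes Gm26224, Gm22489, Gm22357, Gm23212 and Snord78, which have no rows of their own. The part of unspliced RNA and of these snoRNAs in the difference was not tested.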

How the results depend on the processing

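Member counts that moved by over 1.5 times come first. Within 1 run, forebrain had 2 members higher (4 otherwise) and kidney 2 lower (1 otherwise). With library totals, brain EC had 6 lower against brain translatome (3 otherwise) and 1 higher against brain transcriptome (2), and kidney EC had 5 lower against kidney translatome (2) and 0 higher against kidney transcriptome (2). With DESeq2, kidney translatome had 2 higher (1), kidney EC against kidney translatome 4 lower (2), and the organ difference 3 higher (1) and 1 lower (0). In 1 fit of all samples, kidney translatome had 2 higher and 2 lower, kidney EC against kidney translatome 4 lower, and brain EC against kidney EC 2 higher (1). With the replicate block, kidney translatome had 3 higher and 3 lower, kidney EC against kidney transcriptome 1 higher and 3 lower (2 and 5), brain EC against kidney EC 1 lower (2), and the organ difference 3 higher and 1 lower. The 2 EC and Emx1 groups share only a number with the organ libraries (correlations of deviations -0.08 to 0.08). The brain and kidney transcriptomes do too (0.00 to 0.36, 3 of 6 best with their own number). Smaller moves were 3 higher in forebrain under the filter and in 1 fit and 5 with the block, 4 lower with DESeq2 in brain EC against brain translatome, 4 lower with library totals against brain transcriptome (3), 3 lower with the block in kidney EC against kidney translatome, 6 lower with library totals and 4 under the filter against kidney transcriptome, 3 higher with library totals and in 1 fit in Emx1 against brain transcriptome (4), and 4 lower with the block and in 1 fit in brain against kidney transcriptome (5).

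Leaving out 1 library gave 2 to 4 higher and 1 to 2 lower in forebrain, 1 to 2 higher and 1 to 2 lower in kidney, 1 to 3 lower in brain EC against brain translatome, 1 to 3 lower in kidney EC against kidney translatome, 1 to 2 higher and 3 to 5 lower in kidney EC against kidney transcriptome, 1 to 2 higher in Emx1 against brain translatome, 3 to 4 higher in Emx1 against brain transcriptome, 4 lower in brain against kidney transcriptome in every case, 0 to 2 lower in brain EC against kidney EC, and 0 to 1 lower for the organ difference. Signs turned only in values that were not called. Snhg12 in kidney within 1 run was -0.038, and with library totals Snhg1 in brain EC against brain translatome was -0.19, Snhg8 in brain EC against brain transcriptome -0.14, Snhg5 in Emx1 against brain transcriptome -0.0014 and Snhg5 in brain against kidney transcriptome -0.17, the last also -0.0055 under the filter of 10 counts. Leaving out 1 library turned Snhg6 in kidney EC against kidney translatome (-0.12 to 0.049), Gas5 in Emx1 against brain transcriptome (-0.10 to 0.10), Snhg5 in brain against kidney transcriptome (-0.028 to 0.055) and Snhg5 in the organ difference (-0.10 to 0.28). The cause was not tested.

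All rows called changed by over 1.5 times in kidney with the block (4636 higher and 4860 lower, against 2880 and 3049) and within 1 run (1945 and 1791), and for the organ difference with DESeq2 (1128 and 1581, against 472 and 829), the block (1467 and 1978) and without kidney transcriptome replicate 2 (263 and 587). Of the other alternatives for single members, 1012 kept direction and side of the threshold, 37 passed it newly and 55 no longer passed.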

Other observations

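Of 14 genes for snoRNP proteins and assembly factors, 5 were higher and 2 lower in the forebrain translatome (median log2 fold change 0.19) and 3 higher and 5 lower in the kidney (median -0.13), where over all rows 18.6% were higher and 18.5% lower in forebrain and 14.9% and 15.8% in kidney. The 2 lower in forebrain were near that background. RNA length was not taken into account for this list, and the short mRNA rows described above had a median of 1.04 in forebrain and 0.73 in kidney. The small H/ACA proteins Nop10 and Nhp2 rose in forebrain, Nop10 from 37.3 ± 1.95 to 102.7 ± 14.5 RPKM (1.49, adjusted p = 5.7e-09) and Nhp2 from 33.7 ± 2.87 to 76.7 ± 7.96 (1.22). In kidney Nop10 rose as well (1.15), while the C/D core protein Nop56 fell from 79.0 ± 0.97 to 40.0 ± 2.51 (-0.98, adjusted p = 1.0e-07).

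Of 10 genes for factors of nonsense-mediated decay, 7 were lower and 1 higher in forebrain (median -0.32), and 5 were lower and 1 higher in kidney (median -0.40). The kinase Smg1 fell from 17.7 ± 2.54 to 8.01 ± 0.64 RPKM in forebrain (-1.11) and the helicase Upf1 from 33.4 ± 1.17 to 22.5 ± 0.69 (-0.54), whereas Upf3a rose from 34.5 ± 1.41 to 50.4 ± 1.55 (0.58). In kidney Upf1 stood at -0.73, Upf3b at -0.77 and Smg9 at -0.55. All rows tested had a median of -0.01 in forebrain, with 18.5% lower, and of -0.03 in kidney, with 15.8% lower. RNA length was not taken into account here either.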
